A study of Mus musculus with 9 samples.

Results

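The tumour necrosis factor (TNF) ligand and receptor superfamilies were described in CD4+ T cells in which the histone demethylase gene Kdm6a had been targeted. Members were the genes whose mouse symbol starts with Tnfrsf or Tnfsf, together with Tnf, Lta, Ltb, Ltbr, Fas, Fasl, Cd27, Cd70, Cd40 and Cd40lg. This gave 43 of the 39017 genes of the count table, of which 17 encode ligands, 24 encode receptors and 2 are other transcripts of the Tnfsf13 locus. Raw counts summed to 10 or more over the 9 samples in 41 of them, all but Tnfrsf17 and Tnfsf18, and 34 passed the filter on low counts and were tested. RNA-seq read counts came from lymph node CD4+ T cells of male C57BL/6 mice. The 4 cKO samples (replicates 2, 6, 7 and 8) carried 1 floxed Kdm6a allele on the X chromosome (floxed/y) and were CD4-Cre (+/-). The 5 WT samples (replicates 1, 3, 4, 5 and 9) carried the same floxed allele and were CD4-Cre (-/-), so both groups share the floxed allele and differ in Cre. CD4-Cre is driven by regulatory sequence of Cd4, which is active from a thymic stage shared with CD8 T cells, so the deletion is not limited to the mature cells that were measured. The labels give no age, no batch and no statement that each sample was 1 mouse. The p-values set the difference between the groups against the variation among samples of a group. Part of that variation may be technical, and it may not be the variation between mice. The labels describe no stimulation, while the table of counts has the word "stim" in its name.

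Ligands of the TNF superfamily are mostly trimeric proteins of the cell surface that bind receptors with cysteine-rich extracellular repeats. Receptors with a death domain can assemble complexes that start apoptosis. Most of the others, apart from decoy receptors, recruit TRAF adaptors and can turn on the canonical or the alternative NF-kB pathway. In CD4+ T cells the family includes costimulatory receptors such as OX40 (Tnfrsf4), GITR (Tnfrsf18), CD27 and DR3 (Tnfrsf25), and ligands such as CD40L (Cd40lg), by which helper T cells activate B cells.

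Total counts ran from 20587482 to 23820732 in the cKO samples and from 21482927 to 26387488 in the WT samples (two-sided exact permutation p = 0.302). Levels are given as CPM, counts relative to the TMM-scaled library total. Kdm6a, the targeted gene, was at 41.8, 42.7, 41.5 and 44.8 CPM in cKO 2, 6, 7 and 8, against 62.4, 60.04, 63.8, 63.4 and 63.8 CPM in WT 1, 3, 4, 5 and 9. All cKO samples were lower, with a log2 change of -0.55 (SE 0.04, edgeR adjusted p = 2.89e-05), and the sources used here do not say which exons were deleted. The 8 markers of CD4 T cells summed to 3035 to 3310 CPM in cKO and 3054 to 3334 CPM in WT. Of these, Cd3d (log2 -0.19, edgeR adjusted p = 0.0476) and Cd3g (log2 -0.23, adjusted p = 0.0311) fell. Cd4 (log2 0.13, adjusted p = 0.048) and Cd5 (log2 0.23, adjusted p = 0.0013) rose, and the other 4 did not pass. Both markers of CD8 T cells summed to 15.12 to 19.06 CPM in cKO and 11.9 to 15.08 CPM in WT. Cd8b1 rose without overlap (log2 0.28, adjusted p = 0.0296), and Cd8a did not pass (log2 0.58, adjusted p = 0.217). The part of these markers in the results was not tested. All 4 neutrophil markers were at 0 counts in every sample. The share of counts from mitochondrial genes was 2.59% ± 0.138 (SD, n = 4) in cKO and 2.38% ± 0.0574 (SD, n = 5) in WT (two-sided exact permutation p = 0.0159), and its part in the results was not tested. WT 1 had the highest WT level in 17 of the 34 tested members. Over all genes, the chi-square per gene, a measure of how far 2 samples differ, set it nearer to some WT samples than to others. It was 7.80 against WT 3, 8.98 against WT 5, 20.3 against WT 9 and 21.9 against WT 4. Against the cKO samples it ran from 14.2 (cKO 7) to 19.5 (cKO 6). By this measure WT 1 lay nearer to every cKO sample than to WT 9 or WT 4, and the part of this in the results was not tested. Among the cKO samples, cKO 6 was the highest in 15 of the 34. Eomes, a transcription factor of cytotoxic lymphocytes, was at 39.0 CPM in cKO 2 and 10.3 to 17.8 CPM in the other cKO samples. The 4 markers of natural killer cells, Eomes among them, summed to 13.1 to 47.3 CPM in cKO and 7.64 to 20.5 CPM in WT. Neither Eomes (log2 0.91, edgeR adjusted p = 0.115) nor Nkg7 (log2 0.98, adjusted p = 0.0599) passed. The other 2 were under 1 CPM in every sample, and the part of these markers was not tested. In RNA from a whole population, fewer cells of a type and less RNA per cell cannot be told apart.

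Of the 34 members tested, 5 rose in cKO, 6 fell and 23 did not pass the test (edgeR's quasi-likelihood test, adjusted p below 0.05 over all 14693 genes tested). The members called were 32.4% of those tested, against 15.8% of all tested genes (7.0% higher and 8.82% lower). Every member that fell was a receptor: Tnfrsf1b, Tnfrsf25, Tnfrsf8, Tnfrsf26, Tnfrsf1a and Tnfrsf13b. Both ligands that passed, Tnfsf15 and Tnfsf4, rose, and so did the receptors Cd40, Tnfrsf21 and Tnfrsf10b. By role, 2 of 12 tested ligands (16.7%) and 9 of 22 tested receptors (40.9%) passed. The share of the ligands was near the 15.8% of all tested genes. The cKO and WT samples did not overlap in 8 of the 34 tested members (23.5%), against 15.9% of all tested genes (7.08% with cKO higher and 8.78% with cKO lower). All 8 were among the called members, 3 that rose and 5 that fell, and their calls held in each of the 15 other settings tried. The other 3 called members, Tnfrsf13b, Tnfrsf21 and Tnfrsf10b, lost their call when single samples were left out. The number of members that rose was 3 without any 1 of cKO 6, cKO 7, WT 3, WT 4, WT 5 or WT 9, and 8 without WT 1. The number that fell stayed at 5 or 6 in each setting. The median log2 fold change of the tested members was 0.14, against 0.001 for all tested genes.

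**Figure D1:**
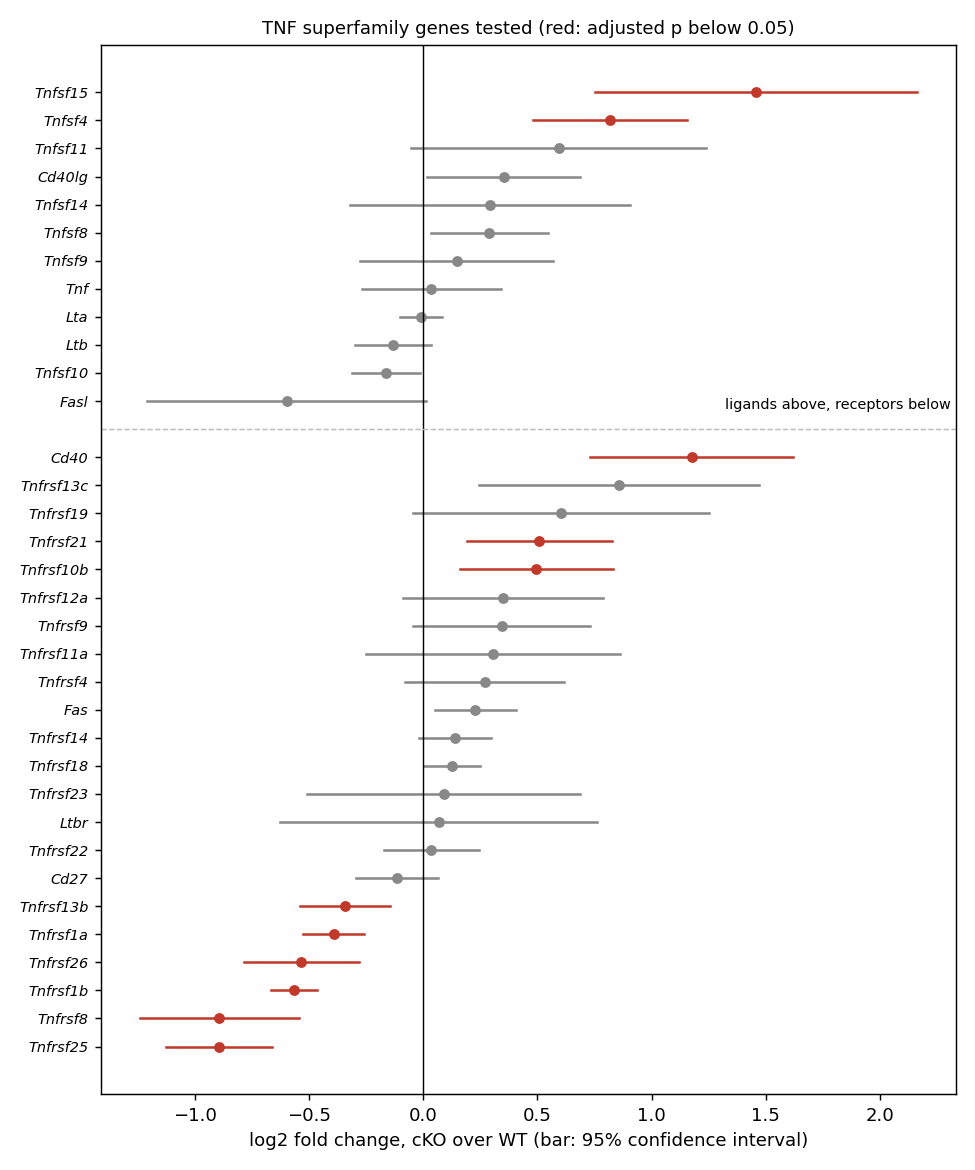
Log2 fold change of cKO over WT for the 34 tested members, ligands in the upper part and receptors in the lower part, with 95% confidence intervals as bars and members with an adjusted p below 0.05 in red. The red ligands lie to the right of 0, while the red receptors lie on both sides, with Tnfrsf25 and Tnfrsf8 farthest left at -0.90 and -0.89.

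Levels of different genes were compared as CPM per kb of annotated exon, and the mean over the 9 samples ran from 0.0980 to 285.7 CPM per kb. Lta and Ltb, which encode the chains of the lymphotoxins, were the most abundant members, at 285 CPM per kb in cKO and 287 CPM per kb in WT for Lta and 233 CPM per kb in cKO and 256 CPM per kb in WT for Ltb. Tnfrsf4 followed at 212 CPM per kb in cKO and 176 CPM per kb in WT, then Tnfrsf18 at 187 CPM per kb in cKO and 172 CPM per kb in WT. Tnfrsf4 had an SD of 43.4 CPM per kb in cKO and 37.4 in WT, more than its distance from Tnfrsf18, so these neighbours in the order did not differ beyond their spread. Below a gap came Tnfsf8, Cd40lg, Tnf and Tnfrsf9, between 38.0 and 69.3 CPM per kb in cKO and between 29.97 and 56.7 in WT. None of these 8 most abundant members passed the test (edgeR), though Tnfsf8, Cd40lg and Tnfrsf18 had unadjusted p of 0.0300, 0.0414 and 0.0462; Tnfsf8 and Cd40lg each passed when 1 sample was left out, as given with their values below. The ninth, Tnfrsf1b, was the most abundant member that changed, at 24.8 CPM per kb in cKO and 36.8 CPM per kb in WT. The members that fell had mean levels of 6.83 to 31.5 CPM per kb over the 9 samples, whereas those that rose ran from 0.292 (Cd40) to 15.4 (Tnfsf4) CPM per kb.

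**Figure D2:**
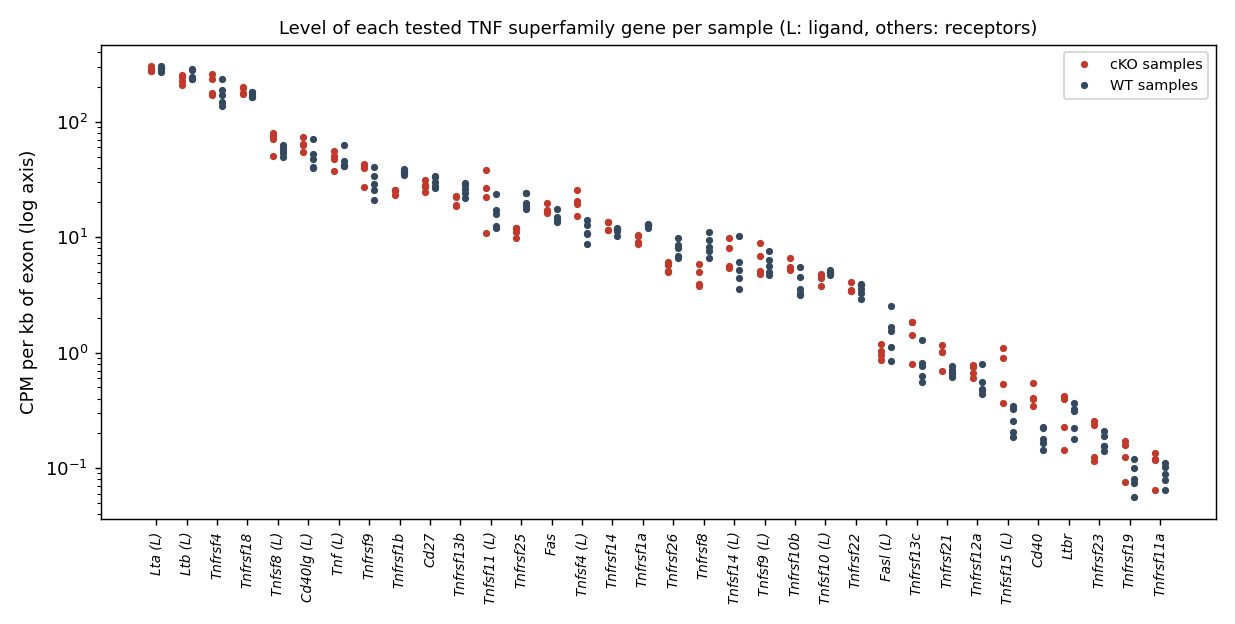
Level of each of the 34 tested members in every sample, in CPM per kb of exon on a log axis, ordered by the mean over the 9 samples, with cKO samples in red and WT samples in dark blue. Lta, Ltb, Tnfrsf4 and Tnfrsf18 form the upper group, and the red points lie wholly below the blue ones in Tnfrsf1b, Tnfrsf25, Tnfrsf1a, Tnfrsf26 and Tnfrsf8.

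Chromosome 4 holds 9 of the 34 tested members, more than any other chromosome. Of the 6 receptors that fell, 3 lie on chromosome 4: Tnfrsf1b, its direct neighbour Tnfrsf8, and Tnfrsf25. Their upstream sequences are shown with that of Tnfsf15, a ligand gene on the same chromosome that rose, because Tnfsf15 encodes the ligand of Tnfrsf25. Each is the 250 bases before the start of transcription in RefSeq (build GRCm38.p6), written 5′ to 3′ on the strand of the gene, with capitals for matches on either strand to GGGCGG (the core of Sp1 sites), GGG, any 2 bases and TTTCC (a form of NF-kB sites) or TGANTCA (AP-1 sites). No matches overlapped within the windows shown. The windows are chr4:145246871-145247120 on the minus strand for Tnfrsf1b, chr4:145315165-145315414 on the minus strand for Tnfrsf8, chr4:152115684-152115933 on the plus strand for Tnfrsf25, and chr4:63745060-63745309 on the minus strand for Tnfsf15.
Tnfrsf1b: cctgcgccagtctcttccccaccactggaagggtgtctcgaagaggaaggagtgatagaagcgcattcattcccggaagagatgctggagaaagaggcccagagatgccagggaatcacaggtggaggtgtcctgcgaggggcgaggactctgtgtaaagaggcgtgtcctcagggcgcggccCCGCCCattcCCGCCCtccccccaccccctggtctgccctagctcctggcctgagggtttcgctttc
Tnfrsf8: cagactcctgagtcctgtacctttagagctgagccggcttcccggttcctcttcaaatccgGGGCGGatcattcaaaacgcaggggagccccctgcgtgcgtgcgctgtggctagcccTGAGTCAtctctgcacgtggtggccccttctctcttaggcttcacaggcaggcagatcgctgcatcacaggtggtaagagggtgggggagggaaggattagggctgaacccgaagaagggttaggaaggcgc
Tnfrsf25: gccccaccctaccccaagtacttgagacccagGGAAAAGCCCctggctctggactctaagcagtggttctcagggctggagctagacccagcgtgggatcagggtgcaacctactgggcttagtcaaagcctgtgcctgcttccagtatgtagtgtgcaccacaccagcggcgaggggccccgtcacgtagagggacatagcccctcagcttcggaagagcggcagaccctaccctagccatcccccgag
Tnfsf15: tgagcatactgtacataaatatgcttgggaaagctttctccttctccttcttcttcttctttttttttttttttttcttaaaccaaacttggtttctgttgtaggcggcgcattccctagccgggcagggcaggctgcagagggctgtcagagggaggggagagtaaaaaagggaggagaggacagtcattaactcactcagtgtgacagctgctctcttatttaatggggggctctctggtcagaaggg
Tnfrsf1b held 2 GGGCGG matches, and Tnfrsf8 held 1 GGGCGG and 1 TGANTCA match. The Tnfrsf25 window shown, the one farther upstream of its 2, held 1 NF-kB match. The other Tnfrsf25 window, not shown, and the Tnfsf15 window held no match to the 3 motifs. Over all 32851 upstream windows of this length, 32.7% held GGGCGG, 1.41% the NF-kB motif and 6.75% TGANTCA. Of the 43 members, 32 matched an entry of the table by symbol, with 36 windows. GGGCGG was in 16 of these 36 windows (44.4%), the NF-kB motif in 3 (8.33%; Ltb, Tnfrsf25 and Tnfrsf9) and TGANTCA in 6 (16.7%). Among windows of members that fell, 2 held GGGCGG, 1 the NF-kB motif and 1 TGANTCA. Among those of members that rose, 1 held GGGCGG and 0 held either of the other motifs. The number of CG dinucleotides was 8 to 14 in the 6 windows of Tnfrsf1a, Tnfrsf1b, Tnfrsf8, Tnfrsf13b and Tnfrsf25, which fell. It was 3 in the window of Tnfsf15 and 12 in that of Tnfrsf21, which both rose. Over all windows the median was 6 with quartiles of 2 and 16, and the 6 windows lay between these quartiles. Windows of members that did not pass had a median of 7.5 and a range of 2 to 31. Cd70, Cd40, Cd40lg, Tnfsf4, Tnfsf9, Tnfsf12, Tnfsf13os, Tnfrsf10b, Tnfrsf11b, Tnfrsf22 and Tnfrsf26 had no entry.

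Tnfrsf1b encodes TNFR2, the TNF receptor without a death domain, which costimulates T cells and is prominent on regulatory T cells. Its level was 97.8, 87.8, 96.6 and 97.0 CPM in cKO 2, 6, 7 and 8, against 133, 149, 143, 140.4 and 137 CPM in WT 1, 3, 4, 5 and 9. The groups were far apart, with the highest cKO sample well under the lowest WT sample, and cKO 6 the lowest of all. The log2 change was -0.57 (SE 0.05, edgeR adjusted p = 5.22e-05), so that Tnfrsf1b fell by 32.5%. Tnfrsf8 encodes CD30, which appears on activated T cells, and lies 20.3 kb from Tnfrsf1b (chr4:145267137-145315164 of mm10, next to chr4:145213463-145246870), with no other protein-coding gene starting between them. Its level was 20.1, 13.7, 13.0 and 17.2 CPM in cKO 2, 6, 7 and 8, against 32.8, 38.1, 28.4, 22.9 and 26.5 CPM in WT 1, 3, 4, 5 and 9. All 4 cKO samples were lower than the WT samples, but cKO 2 came within a few CPM of WT 5. The log2 change was -0.89 (SE 0.16, edgeR adjusted p = 0.00450), and Tnfrsf8 fell by 46.2%. Tnfrsf25 encodes DR3, a death domain receptor that costimulates T cells, and lies at chr4:152115934-152120119 of mm10. It was at 22.4, 25.3, 27.2 and 27.5 CPM in cKO 2, 6, 7 and 8, against 42.7, 45.1, 55.3, 39.9 and 54.9 CPM in WT 1, 3, 4, 5 and 9. WT 4 and WT 9 were the highest, and the WT sample nearest to cKO, WT 5, was still well above all cKO samples. Tnfrsf25 fell by 46.3% (log2 -0.90, SE 0.11, edgeR adjusted p = 0.000554). Foxp3, which marks regulatory T cells, was at 74.1 to 134 CPM in cKO and 89.3 to 119 CPM in WT, ranges that overlap. Of the other regulatory T cell markers, Ikzf2 rose without overlap (means of 121 CPM in cKO and 88.4 CPM in WT, log2 0.46, edgeR adjusted p = 0.000651), Il2ra fell (means of 2569 CPM in cKO and 3182 CPM in WT, log2 -0.31, adjusted p = 0.0190), and Ctla4 did not pass (log2 0.09, adjusted p = 0.449). The 4 markers together, with Il2ra the largest share, summed to 2909 to 3588 CPM in cKO and 3564 to 4146 CPM in WT, and their part in the falls was not tested.

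**Figure D3:**
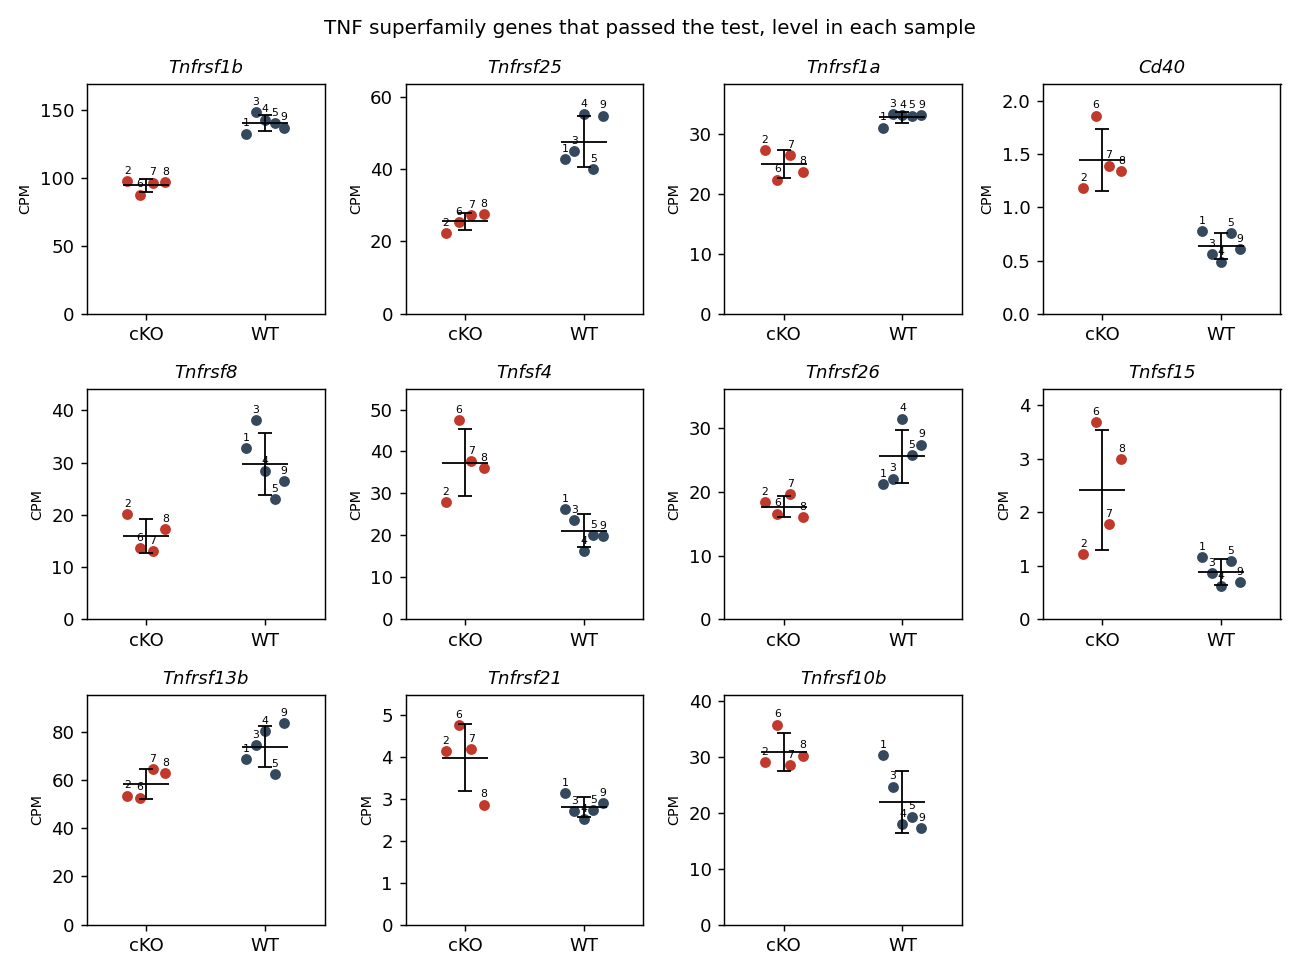
Level in CPM of the 11 members with an adjusted p below 0.05, 1 panel per gene, with each cKO sample (red, left) and WT sample (dark blue, right) labelled by its replicate number and the group mean and SD in black. The groups are separate in the first 8 panels and touch or overlap in Tnfrsf13b, Tnfrsf21 and Tnfrsf10b, where for example WT 1 at 30.3 CPM of Tnfrsf10b lies among the cKO samples.

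The remaining 3 receptors that fell lie on other chromosomes. Tnfrsf1a (chr6:125349362-125362484) encodes TNFR1, the death domain receptor of TNF, and stood at 27.3, 22.4, 26.6 and 23.7 CPM in cKO 2, 6, 7 and 8, against 31.1, 33.4, 33.3, 33.1 and 33.1 CPM in WT 1, 3, 4, 5 and 9. The WT samples were close to each other, with WT 1 the lowest, and all cKO samples were lower. The log2 change was -0.39 (SE 0.06, edgeR adjusted p = 0.00243), and Tnfrsf1a fell by 23.8%. Tnfrsf26, a mouse receptor gene in a cluster with the decoy receptor genes Tnfrsf22 and Tnfrsf23 on chromosome 7, was at 18.4, 16.6, 19.7 and 16.01 CPM in cKO 2, 6, 7 and 8, against 21.2, 22.1, 31.5, 25.8 and 27.4 CPM in WT 1, 3, 4, 5 and 9. The highest cKO sample, cKO 7, was just under the lowest WT sample, WT 1. The change was -0.53 on the log2 scale (SE 0.11, edgeR adjusted p = 0.0108); 107 of its 3218 exonic bases are shared with a gene on the opposite strand, and the strand setting of the counting is not given in the sources used here. Tnfrsf13b (chr11:61126755-61149372) encodes TACI, the receptor of BAFF and APRIL that is best known from B cells. Its level was 53.4, 52.7, 64.3 and 62.7 CPM in cKO 2, 6, 7 and 8, against 68.6, 74.3, 80.3, 62.3 and 83.5 CPM in WT 1, 3, 4, 5 and 9. The groups overlapped, since WT 5 was below cKO 7 and cKO 8. The log2 change was -0.34 (SE 0.09, edgeR adjusted p = 0.0267), and the adjusted p was between 0.0542 and 0.0855 without any 1 of cKO 2, cKO 6, WT 3, WT 4 or WT 9. Markers of B cells were low in both groups, with 7 marker genes summing to 4.34 to 5.78 CPM in cKO and 4.01 to 7.40 CPM in WT. The 4 markers of plasma cells summed to 147 to 223 CPM in cKO and 266 to 333.5 CPM in WT, most of it Xbp1, which T cells express too. Xbp1 fell (log2 -0.62, edgeR adjusted p = 0.00599) and so did Prdm1 (log2 -0.81, adjusted p = 0.0448), Sdc1 was at 3.42 CPM in cKO and 2.31 CPM in WT and did not pass (log2 0.57, adjusted p = 0.0747), and Jchain was under 1 CPM in every sample. Their part in the result for Tnfrsf13b was not tested.

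Both ligands that passed the test rose. Tnfsf4 (chr1:161395409-161418410) encodes OX40L, the ligand of OX40, which is known mainly from antigen-presenting cells and is also made by activated T cells. Its level was 28.0, 47.4, 37.7 and 36.0 CPM in cKO 2, 6, 7 and 8, against 26.2, 23.6, 16.1, 19.97 and 19.8 CPM in WT 1, 3, 4, 5 and 9. The groups did not overlap, but cKO 2 was only slightly above WT 1, and cKO 6 was the highest. Tnfsf4 rose 1.76-fold (log2 0.82, SE 0.15, edgeR adjusted p = 0.00605). Tnfsf15 (chr4:63727084-63745113) encodes TL1A, the ligand of DR3, and was expressed at a low level, 1.22, 3.69, 1.78 and 2.996 CPM in cKO 2, 6, 7 and 8, against 1.16, 0.859, 0.617, 1.09 and 0.687 CPM in WT 1, 3, 4, 5 and 9. Here too cKO 2 lay just above WT 1, while cKO 6 and cKO 8 were the highest, and the raw counts behind these values ran from 14 to 89. It rose 2.74-fold (log2 1.46, SE 0.32, edgeR adjusted p = 0.0125), the largest change among the tested members, with a log2 range of 1.17 to 1.68 when single samples were left out. Markers of dendritic cells, a known source of both ligands, summed to 2.74 to 3.75 CPM in cKO and 2.21 to 3.61 CPM in WT, ranges that overlap; 5 of the 6 were under 1 CPM in every sample, and Clec9a was at 0 counts throughout. Markers of macrophages and monocytes summed to 17.4 to 21.3 CPM in cKO and 14.9 to 19.5 CPM in WT, most of it Csf1r, and their part was not tested.

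Among the receptors that rose, Cd40 had the largest change. Cd40 (chr2:165055627-165072948) encodes the receptor through which CD40L acts on B cells and other antigen-presenting cells. It was low, at 1.18, 1.86, 1.39 and 1.34 CPM in cKO 2, 6, 7 and 8, against 0.775, 0.558, 0.485, 0.755 and 0.611 CPM in WT 1, 3, 4, 5 and 9, from 11 to 45 raw counts. Every cKO sample was above every WT sample. Cd40 rose 2.26-fold (log2 1.18, SE 0.20, edgeR adjusted p = 0.00413). The summed ranges of the B cell markers given above overlap between the groups. Ms4a1 was at 0.613 CPM in cKO and 0.319 CPM in WT (adjusted p = 0.150) and Cd79b, a chain of the B cell receptor, fell (log2 -0.91, SE 0.19, edgeR adjusted p = 0.0104); their part in the rise of Cd40 was not tested. Tnfrsf13c, the BAFF receptor gene of B cells, was at 1.64, 3.81, 2.93 and 3.76 CPM in cKO 2, 6, 7 and 8, against 2.64, 1.29, 1.68, 1.13 and 1.57 CPM in WT 1, 3, 4, 5 and 9. Tnfrsf13c did not pass (log2 0.86, SE 0.28, edgeR adjusted p = 0.0603), and cKO 2, WT 1 and WT 4 lay inside the range of the other group. The adjusted p was 0.0146 without cKO 2, 0.0151 without WT 1 and 0.0251 in DESeq2.

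The 5 receptors with a death domain did not move together: Tnfrsf1a and Tnfrsf25 fell, Tnfrsf21 and Tnfrsf10b rose, and Fas did not pass. Tnfrsf21 (chr17:43016555-43089189) encodes DR6, and was at 4.13, 4.76, 4.18 and 2.86 CPM in cKO 2, 6, 7 and 8, against 3.14, 2.71, 2.51, 2.74 and 2.90 CPM in WT 1, 3, 4, 5 and 9. Only cKO 8 lay within the WT range. The log2 change was 0.51 (SE 0.15, edgeR adjusted p = 0.0360), but it did not pass in limma-voom (adjusted p = 0.0503) or when cKO 2, cKO 6, cKO 7, WT 3, WT 4, WT 5 or WT 9 was left out (0.0651 to 0.120). Tnfrsf10b (chr14:69767472-69784411) encodes the death receptor of TRAIL in the mouse. Its level was 29.1, 35.7, 28.5 and 30.2 CPM in cKO 2, 6, 7 and 8, against 30.3, 24.7, 17.9, 19.3 and 17.2 CPM in WT 1, 3, 4, 5 and 9. WT 1 was inside the cKO range, and the other 4 WT samples were below that range. It rose 1.41-fold (log2 0.49, SE 0.15, edgeR adjusted p = 0.0484); without any 1 of the samples other than WT 1 the adjusted p ran from 0.0623 to 0.144, and without WT 1 it was 0.00415. Fas, the receptor of Fas ligand, was at 35.1, 40.6, 34.5 and 33.5 CPM in cKO 2, 6, 7 and 8, against 36.1, 28.6, 29.8, 31.2 and 27.9 CPM in WT 1, 3, 4, 5 and 9. It differed by 0.23 on the log2 scale (95% interval 0.05 to 0.40, edgeR adjusted p = 0.0820), and by 0.29 without WT 1 (adjusted p = 0.0127).

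Of the 12 tested ligands, 10 did not pass the test. Lta was at 380.1, 393, 419 and 383 CPM in cKO 2, 6, 7 and 8, against 418, 382, 376, 405 and 401 CPM in WT 1, 3, 4, 5 and 9. The groups overlapped throughout. The log2 difference was -0.01 with a 95% interval of -0.10 to 0.08 (edgeR adjusted p = 0.902), an interval that does not reach the change of Tnfrsf1b. Ltb, whose product anchors lymphotoxin to the cell surface, was at 345, 315, 370.4 and 386 CPM in cKO 2, 6, 7 and 8, against 357, 354, 427, 371 and 431 CPM in WT 1, 3, 4, 5 and 9. WT 4 and WT 9 were the highest and cKO 6 the lowest, with a difference of -0.13 (95% interval -0.30 to 0.03, adjusted p = 0.259). Tnf lies between Ltb and Lta within a few kb on chromosome 17. It was at 78.7 CPM ± 12.6 (SD, n = 4) in cKO and 76.8 CPM ± 15.5 (SD, n = 5) in WT, a log2 difference of 0.04 (95% interval -0.27 to 0.34, edgeR adjusted p = 0.890), with WT 1 the highest sample at 104 CPM.

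Tnfsf8, the CD30 ligand gene, was at 193, 306, 287 and 268 CPM in cKO 2, 6, 7 and 8, against 239, 205, 218, 187 and 231 CPM in WT 1, 3, 4, 5 and 9. In 3 of 4 cKO samples it was above every WT sample, while cKO 2 was lower than 4 of the 5 WT samples. The log2 difference was 0.29 (95% interval 0.03 to 0.54, edgeR adjusted p = 0.116), and 0.41 without cKO 2 (adjusted p = 0.00609). Cd40lg, the X-linked gene of CD40L, was at 80.6, 93.0, 79.1 and 68.6 CPM in cKO 2, 6, 7 and 8, against 88.3, 59.9, 50.7, 66.3 and 49.6 CPM in WT 1, 3, 4, 5 and 9. WT 1 exceeded all cKO samples but cKO 6, and the other 4 WT samples were below all of them. The difference was 0.35 (95% interval 0.02 to 0.69, edgeR adjusted p = 0.142), and 0.51 without WT 1 (adjusted p = 0.00856). Tnfsf11, which encodes RANKL, varied widely within cKO, with 24.5, 85.1, 60.1 and 50.1 CPM in cKO 2, 6, 7 and 8 and 26.8 to 52.8 CPM in WT. Sample cKO 2 was below every WT sample and cKO 6 above all others, and the difference of 0.59 (95% interval -0.05 to 1.24, adjusted p = 0.196) became 0.84 without cKO 2 (adjusted p = 0.0274).

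The remaining ligands were lower in abundance. Tnfsf10, the TRAIL gene, was at 23.3 CPM ± 2.38 (SD, n = 4) in cKO and 26.2 CPM ± 0.960 (SD, n = 5) in WT, with a log2 difference of -0.17 (edgeR adjusted p = 0.122). Tnfsf14, the gene of LIGHT, was at 13.4 CPM ± 3.91 (SD, n = 4) in cKO and 10.9 CPM ± 4.805 (SD, n = 5) in WT (adjusted p = 0.514). In Tnfsf9, the gene of the ligand of CD137, the levels were 8.31 CPM ± 2.47 (SD, n = 4) in cKO and 7.52 CPM ± 1.502 (SD, n = 5) in WT (adjusted p = 0.648), and an antisense gene covers 192 of its 1290 exonic bases. Fasl, the death-inducing ligand of Fas, was at 1.68 to 2.32 CPM in cKO and 1.64 to 4.88 CPM in WT, where WT 1 was the highest (log2 -0.60, 95% interval -1.21 to 0.01, adjusted p = 0.168). None of these 4 separated the groups.

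Several costimulatory receptors without a death domain, unlike Tnfrsf1b above, did not pass. Tnfrsf4, the gene of OX40, was at 244, 355, 234 and 323 CPM in cKO 2, 6, 7 and 8, against 319, 255, 188, 233 and 204 CPM in WT 1, 3, 4, 5 and 9. The groups overlapped broadly, with cKO 6, cKO 8 and WT 1 high and WT 4 low, a difference of 0.27 (95% interval -0.08 to 0.62, edgeR adjusted p = 0.273). Tnfrsf18, the gene of GITR and its neighbour at a gap of 9.55 kb, was at 272, 300.5, 263 and 307 CPM in cKO 2, 6, 7 and 8, against 277, 277, 249.9, 258 and 247 CPM in WT 1, 3, 4, 5 and 9. The cKO samples 6 and 8 were above all WT samples, and the difference was 0.12 (95% interval 0.00 to 0.25, edgeR adjusted p = 0.153); an annotated gene on the opposite strand shares 414 of its 1524 exonic bases. Tnfrsf9, the gene of CD137, was at 103 CPM ± 19.6 (SD, n = 4) in cKO and 81.6 CPM ± 20.3 (SD, n = 5) in WT (adjusted p = 0.211). For Cd27, the receptor of CD70, levels were 65.0 CPM ± 6.53 (SD, n = 4) in cKO and 70.5 CPM ± 7.11 (SD, n = 5) in WT (adjusted p = 0.361). Tnfrsf14, which encodes the LIGHT receptor HVEM, was at 18.1 CPM ± 1.61 (SD, n = 4) in cKO and 16.4 CPM ± 0.998 (SD, n = 5) in WT (adjusted p = 0.215). The ranges of cKO and WT overlapped in each of these 5 receptors, and 129 of the 2328 exonic bases of Cd27 are shared with a microRNA gene.

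Other receptors were low or at the limit of the filter. Tnfrsf22, a mouse decoy receptor of TRAIL, was at 15.2 CPM ± 1.39 (SD, n = 4) in cKO and 14.8 CPM ± 1.74 (SD, n = 5) in WT (log2 0.03, edgeR adjusted p = 0.842). Tnfrsf12a (Fn14), Tnfrsf23 (a decoy like Tnfrsf22), Ltbr (the lymphotoxin beta receptor), Tnfrsf11a (RANK) and Tnfrsf19 (TROY) had means between 0.628 and 1.35 CPM in cKO and between 0.407 and 1.07 CPM in WT. Their adjusted p ran from 0.191 (Tnfrsf19) to 0.910 (Ltbr) in edgeR, with an interval of -0.63 to 0.76 for Ltbr, so that a change of the size seen in Tnfrsf1b was, for Ltbr, not detectable at this depth.

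The 9 members that were not tested had between 0 and 17 counts per sample. The highest of them was Cd70, the ligand gene of CD27, with 10, 17, 5 and 12 counts in cKO 2, 6, 7 and 8 and 7, 1, 3, 5 and 6 counts in WT 1, 3, 4, 5 and 9. Tnfsf12 (TWEAK), Tnfsf13 (APRIL), Tnfsf13b (BAFF) and Tnfrsf11b (osteoprotegerin) had 0 to 7 counts in each sample. Tnfsfm13 spans Tnfsf12 and Tnfsf13, and Tnfsf13os overlaps Tnfsf13 on the opposite strand, so their counts of 0 to 5 cannot be assigned with certainty. Tnfrsf17 (the plasma cell receptor BCMA) and Tnfsf18 (the ligand of GITR) had 0 counts in all 4 cKO samples, and at most 2 and 1 counts in a WT sample. A count of 0 allows up to 3 counts, which is 0.124 to 0.144 CPM in the cKO samples and covers counting error only.

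Set beside their receptors, ligands showed no common direction. Of 25 ligand and receptor pairs listed, 16 had both genes tested, 9 of these had at least 1 gene called, and 1 had both. Genes such as Tnfrsf1a and Tnfrsf1b stand in more than 1 pair, so the pairs are not independent. No matching share for pairs of other genes was computed. In 4 of the 16 the estimate of the ligand was above 0 and that of the receptor below 0. The pair with both called was Tnfsf15 and Tnfrsf25, in which the ligand was higher (log2 1.46) and the receptor lower (log2 -0.90) in cKO. Tnf and Lta share the receptors Tnfrsf1a and Tnfrsf1b; both receptors fell, at -0.39 and -0.57, while the ligands were at 0.04 and -0.01 and did not pass. CD30 was lower at -0.89 beside an estimate of 0.29 for its ligand gene Tnfsf8. For OX40 the ligand rose (0.82) and the receptor did not pass (0.27), and for CD40 the receptor rose (1.18) and the ligand did not pass (0.35). Whether ligand and receptor of a pair differ in their change was not tested.

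**Figure D4:**
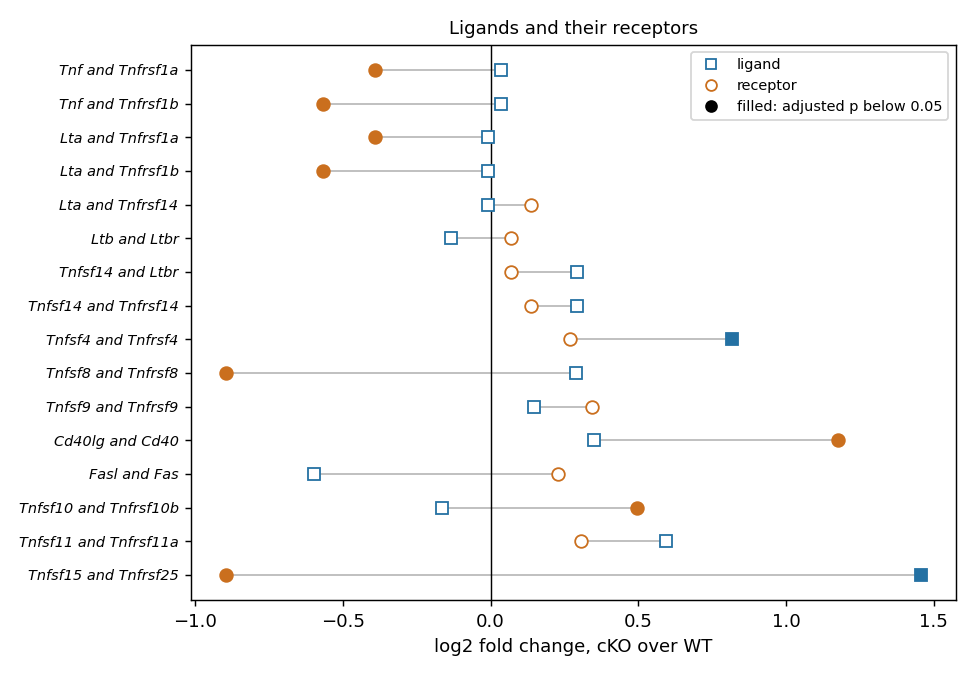
Log2 fold change of cKO over WT for the ligand (square) and the receptor (circle) of the 16 pairs with both genes tested, joined by a line, with filled symbols for an adjusted p below 0.05. Tnfsf15 and Tnfrsf25 are the pair with both symbols filled, at 1.46 and -0.90.

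Many members sit beside a relative, as tandem copies do, and neighbours did not always share a result. Tnfrsf1b and Tnfrsf8 both fell. Tnfsf15 and Tnfsf8 lie 86.2 kb apart on chromosome 4, and the first rose while the second did not pass. Tnfrsf26 fell, while Tnfrsf22, 6.08 kb away, and Tnfrsf23 were at log2 0.03 and 0.09 and did not pass, and the sign of each changed without cKO 7. On chromosome 6, Tnfrsf1a fell, while Ltbr and Cd27 did not pass. None of the Ltb, Tnf and Lta genes on chromosome 17 passed (edgeR unadjusted p of 0.107, 0.803 and 0.823). Chromosome 4 held 9 members, all tested, of which 3 fell and 1 rose. Of all tested genes 15.8% were called, and the share among all genes of chromosome 4 was not computed.

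Downstream of the receptors, 34 genes of adaptors, kinases, ubiquitin-linked proteins and NF-kB targets were all tested, and 3 rose, 4 fell and 27 did not pass, 20.6% called against 15.8% of all genes. Map3k5, the stress kinase ASK1, was at 44.5, 35.3, 45.8 and 44.1 CPM in cKO 2, 6, 7 and 8, against 63.3, 68.8, 82.2, 69.3 and 76.7 CPM in WT 1, 3, 4, 5 and 9. The groups were separate, and Map3k5 fell by 41.2% (log2 -0.77, SE 0.09, edgeR adjusted p = 0.000516). Birc2, which encodes the ubiquitin ligase cIAP1 of the TNF receptor complex, was at 69.5, 69.4, 67.4 and 69.8 CPM in cKO 2, 6, 7 and 8, against 57.5, 53.2, 58.3, 58.6 and 56.2 CPM in WT 1, 3, 4, 5 and 9. It rose 1.22-fold without overlap (log2 0.28, SE 0.04, edgeR adjusted p = 0.00115). Nfkb2, the precursor of the alternative NF-kB subunit, rose 1.54-fold, with 145 to 222 CPM in cKO and 89.1 to 161 CPM in WT, where WT 1 was the highest (adjusted p = 0.0295). Tradd, the adaptor of TNFR1 and DR3, fell by 0.23 on the log2 scale (SE 0.07, adjusted p = 0.0348). The kinase gene Map3k7 (TAK1) rose, at log2 0.22 (adjusted p = 0.0365), and Ikbkb, a catalytic subunit of the IkB kinase, fell, at log2 -0.16 (adjusted p = 0.0450). Ripk3, the kinase of necroptosis, fell as well (log2 -0.27, adjusted p = 0.0487). The calls of Map3k5 and Birc2 held in each setting, while those of Nfkb2, Tradd, Map3k7, Ikbkb and Ripk3 did not. Nfkb2 had adjusted p up to 0.0962 (without cKO 6), Tradd up to 0.109 (without cKO 6), Map3k7 up to 0.113 (without cKO 6) and Ikbkb up to 0.104 (without cKO 2). Ripk3 did not pass with RLE scaling (0.0510), with upper-quartile scaling (0.0660), without the count filter (0.0501) or without any 1 of cKO 6, cKO 7, cKO 8, WT 3, WT 4, WT 5 or WT 9 (0.0780 to 0.138). The number of genes called was 2 without any 1 of cKO 6, cKO 8, WT 3, WT 4 or WT 9, and 17 without WT 1. The adaptor genes Traf1 to Traf6 did not pass, with log2 estimates from -0.26 (Traf5) to 0.34 (Traf4). The median log2 fold change of the 34 genes was -0.02, with estimates from -0.77 (Map3k5) to 0.73 (Tnfaip3, adjusted p = 0.107, not passed). Estimates were above 0 in 15 genes and below 0 in 19. The edgeR unadjusted p was below 0.05 in 18 of the 34, of which 9 were higher and 9 lower, and in 31.1% of all tested genes.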

How the data were processed

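RNA was made into stranded libraries after mRNA enrichment, per the labels' protocols. The authors deposited raw read counts per Ensembl gene, whole numbers with 1 column per sample and 0 columns of no sample of the series. Per the submitters' processing notes, bcl2fastq 2.17 was used and the build was mm10. Which aligner, counter, strand setting and annotation were used is not stated there. Symbols, positions and exon lengths came from GENCODE M21, with symbols for 37693 of 39017 IDs, and upstream sequences from RefSeq on GRCm38.p6.

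Samples were grouped by their titles. Genes were tested with edgeR 4.0.16 (R 4.3.3), fitting its quasi-likelihood model to all 9 samples, two-sided, with TMM scaling, genes kept by filterByExpr, no covariate and Benjamini-Hochberg adjustment over 14693 genes. Intervals are 95% and unadjusted. The biological coefficient of variation was 8.04%. Samples of a group differed by more than sampling noise (chi-square per gene from 3.48 to 21.9). Alternatives were RLE and upper-quartile scaling, other filters, DESeq2 1.42.0, limma-voom 3.58.1 and leaving out each sample. The code was tested on simulated data. The members and lists were chosen with earlier results of these data known. 1 marker gene is not reported here and is left out of the sums. All members are named. Sample values are given for called members and for the 6 most abundant others. They are also given for Tnfrsf13c, Fas, Cd70 and part of Tnfsf11, chosen after their values were seen. Downstream, up to 6 called genes are named with values, and Ripk3, the Traf genes and Tnfaip3 with estimates. Tnfaip3 was chosen after its values were seen.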

Additional observations from a re-analysis of the deposited data

Results flagged for a closer look

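In 4 of the 68 sets of values of the tested members, 1 genotype each, a single sample lay far from the others of its genotype, and chance gives about 1 in 20. The Tnf level of WT 1, 103.9 CPM, was above the 67.3 to 75.4 CPM of the other WT samples. The Tnfrsf1a level of WT 1, 31.1 CPM, was below the 33.1 to 33.4 CPM of the other WT samples, and on the side of the cKO samples. The Tnfrsf1b level of cKO 6, 87.8 CPM, was below the 96.6 to 97.8 CPM of the other cKO samples. The Tnfrsf22 level of cKO 7, 17.2 CPM, was above the 14.3 to 14.7 CPM of the other cKO samples.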

How the results depend on the processing

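The calls of Tnfrsf1b, Tnfrsf25, Tnfrsf1a, Tnfrsf8, Tnfrsf26, Cd40, Tnfsf4 and Tnfsf15 held in all 15 alternatives. With single samples left out, the count of all called genes ran from 1263 to 2933 (531 to 1363 higher and 732 to 1570 lower; 1263 without cKO 6, 1504 without cKO 8, 1528 without WT 4), that of called members from 8 to 14 (3 to 8 higher and 5 to 6 lower), and that of called downstream genes from 2 to 17 (1 to 9 higher and 1 to 8 lower). The causes were not tested. DESeq2 called 12 downstream genes, 6 of them higher, and upper-quartile scaling left 1 lower. Upper-quartile scaling made 54.2% of all called genes higher, against 44.2% with TMM, and left the members at 5 higher and 6 lower. Signs changed in members that did not pass: Lta was at 0.0089 with upper-quartile scaling and Ltbr at -0.0056 in limma-voom, and with single samples left out the ranges were -0.040 to 0.010 for Lta, -0.13 to 0.28 for Ltbr, -0.047 to 0.17 for Tnf, -0.031 to 0.080 for Tnfrsf22, -0.10 to 0.26 for Tnfrsf23 and -0.060 to 0.26 for Tnfsf9. At these depths 1 CPM is more than 20 counts, so members under 1 CPM rest on few reads. No paired analysis was made because the labels give no pairing of cKO and WT samples.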
